A study of Homo sapiens with 8 samples.

Results

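CCN1, CCN2 and VGLL3 are genes of YAP-TEAD signalling, and they were described here through the peaks of an N4-acetylcytidine (ac4C) immunoprecipitation that overlapped their gene spans on GRCh38. The rule found 4 such peaks among 31395 in all: 1 in CCN1, 1 in CCN2 and 2 in VGLL3. CCN1 and VGLL3 were chosen because, in earlier results of these data, both were lower in the NAT10 knockout than in the control library of each cell line, and CCN2 was taken as the close relative of CCN1. Their differences between genotypes are therefore given as a description, with no test.

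The study used 2 established lines of human osteosarcoma, a bone tumour: HOS, and 143B, a transformed derivative of it. In each line, cells labelled sgNAT10, a knockout of the RNA acetyltransferase NAT10 that writes ac4C, were set against control cells labelled NC. Poly(A) RNA was fragmented and pulled down with an antibody against ac4C (acRIP). The labels list 8 samples, and the 4 acRIP libraries used here are 143B sgNAT10, 143B NC, HOS sgNAT10 and HOS NC, each 1 library with no replicate. The labels do not say whether the knockout cells were clones or a pool, and they name no guide sequence or culture time.

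YAP and its paralogue TAZ are coactivators that the Hippo kinases hold in the cytoplasm by phosphorylation. In the nucleus they bind the DNA-binding TEAD proteins and switch on target genes in response to cell shape, stiffness and growth signals. CCN1 and CCN2 encode secreted matrix-associated proteins that signal through integrins, are among the best-known YAP-TEAD target genes, and are made by mesenchymal and bone-forming cells. VGLL3 encodes a vestigial-like cofactor that binds TEAD proteins itself.

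TEAD proteins bind DNA at elements with the core GGAATG, and the promoters of the members are shown for this element. RefSeq promoter sequence (GRCh38.p14) was held for CCN2 and VGLL3 but not for CCN1. The 250 bases before each gene's start are printed 5′ to 3′ on the gene's strand, the minus strand in both, with every GGAATG in capitals. The windows lie at chr6:131951373-131951622 for CCN2 and at chr3:86991150-86991399 for VGLL3.
CCN2: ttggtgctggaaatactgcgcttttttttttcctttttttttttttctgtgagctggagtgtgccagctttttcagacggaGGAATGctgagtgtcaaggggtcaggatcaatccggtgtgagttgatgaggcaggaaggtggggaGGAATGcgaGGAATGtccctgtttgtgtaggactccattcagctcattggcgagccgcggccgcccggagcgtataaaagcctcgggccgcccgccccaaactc
VGLL3: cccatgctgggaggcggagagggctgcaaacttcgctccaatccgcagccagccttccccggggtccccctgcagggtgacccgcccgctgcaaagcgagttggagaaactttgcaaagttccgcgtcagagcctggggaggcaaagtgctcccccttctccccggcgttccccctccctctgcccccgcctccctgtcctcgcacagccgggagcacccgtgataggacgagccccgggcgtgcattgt
The CCN2 window held GGAATG 3 times, all on the gene's own strand, at 169 to 164, 104 to 99 and 95 to 90 bases before the start. The VGLL3 window held none on either strand. Searched on both strands, 11.9% of the 27305 windows of this length held the element at least once, and 26 windows (0.0952%) held it at least 3 times. Among the other YAP-TEAD targets listed for this report, 4 of the 13 with a promoter sequence held it (ANKRD1, FOXF2, NUAK2 and TGFB2). The AP-1 site TGANTCA was found in neither member's window, against 6.60% of all windows, and the CCN2 window held 1 TATAAA, against 11.1% of all windows. A match is a run of letters and was not measured as a binding site.

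The peaks lay at different places in their genes. CCN1 (Gene ID 3491, chromosome 1, 85580761 to 85583950) was covered in the middle, at 85582166 to 85582331, 1405 and 1619 bp from its ends. CCN2 (Gene ID 1490, chromosome 6, 131948176 to 131951372) was covered near its end, at 131948214 to 131948375, 38 bp from the 3′ end of the gene and 2997 bp from its start. The CCN2 peak also overlaps the antisense gene CCN2-AS1, and the strand setting of the counting was not given, so reads of the 2 genes cannot be told apart. VGLL3 (Gene ID 389136, chromosome 3, 86937973 to 86991149) held its peak 1 at 86946765 to 86947092, 8792 bp from the 3′ end, and its peak 2 at 86968885 to 86969112, 30912 bp from it. The gene table used holds no exons, so whether these peaks are exonic, intronic or in an untranslated region is not given. No other peak lay within 10000 bp of any of the 3 genes.

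Some facts of the libraries bear on every value. Totals over all peaks ranged from 20107718 to 24785306 counts, and counts were scaled between libraries with TMM factors and are given as normalised counts (CPM). NAT10 itself, the knocked-out gene, had 1 peak, with 130 counts in the 143B library labelled sgNAT10 against 65 in 143B NC (log2 shift 0.50), and 63 counts in HOS sgNAT10 against 180 in HOS NC (-1.85). The 143B library labelled sgNAT10 thus goes against its label at this peak, although an edited gene can keep its RNA, and below, 143B sgNAT10 means the library so labelled. If the 143B labels were exchanged, every 143B shift would change sign, so that CCN2 would be lower in sgNAT10 of both lines, and CCN1 and VGLL3 higher in 143B and lower in HOS. This library also stood apart from the others, with Spearman correlations across peaks of 0.583 to 0.718, against 0.803 to 0.865 among the rest. Of 10 mesenchymal and bone markers 5 had a peak (RUNX2, SP7, ALPL, SPARC and VIM), with summed levels of 274 CPM in 143B sgNAT10, 521 CPM in 143B NC, 956 CPM in HOS sgNAT10 and 996 CPM in HOS NC, while the collagen genes COL1A1 and COL1A2 had none. VIM made up most of these sums, with 246 CPM in 143B sgNAT10, 487 CPM in 143B NC, 924 CPM in HOS sgNAT10 and 920 CPM in HOS NC. The matrix gene SPARC had 18.7 CPM in HOS sgNAT10 against 68.2 CPM in HOS NC (log2 shift -1.86, and 0.05 in 143B), and the bone transcription factor gene RUNX2 had shifts of -1.81 in 143B and 0.78 in HOS. The endothelial markers PECAM1 and CDH5 had no peak, and of 3 blood markers only PTPRC had one, at 0.111 to 0.783 CPM. Of 4 epithelial markers only CDH1 had peaks, summing to 0.249 CPM in 143B sgNAT10, 1.51 CPM in 143B NC, 35.3 CPM in HOS sgNAT10 and 0.277 CPM in HOS NC. EPCAM, KRT5 and KRT14 had no peak in any library. The part of these differences in the results below was not tested. In acRIP counts, less RNA and less ac4C per RNA cannot be told apart, since input libraries were not used here.

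CCN1, a secreted ligand and the member with the highest level per kilobase of peak in 3 of the 4 libraries, was lower in the library labelled sgNAT10 of both lines. Its peak held 214 counts in 143B sgNAT10 and 502 in 143B NC, a normalised count of 7.61 CPM (95% interval 6.63 to 8.71) and 25.2 CPM (23.1 to 27.5). In HOS it held 540 counts in sgNAT10 and 1268 in NC, 23.4 CPM (21.5 to 25.5) and 70.2 CPM (66.4 to 74.2). HOS NC was thus the highest library, HOS sgNAT10 and 143B NC lay side by side with overlapping intervals, and the 143B library labelled sgNAT10 was the lowest. The log2 shift, sgNAT10 over NC, was -1.72 (-1.97 to -1.49) in 143B and -1.58 (-1.73 to -1.44) in HOS, so that CCN1 was 3.3-fold lower in 143B sgNAT10 and 2.99-fold lower in HOS sgNAT10. These and all following intervals are 95% exact intervals for counting error only (Poisson for a level, conditional binomial for a shift or ratio), and sequencing reads that carry no molecular identifier do not each stand for a molecule.

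**Figure D1:**
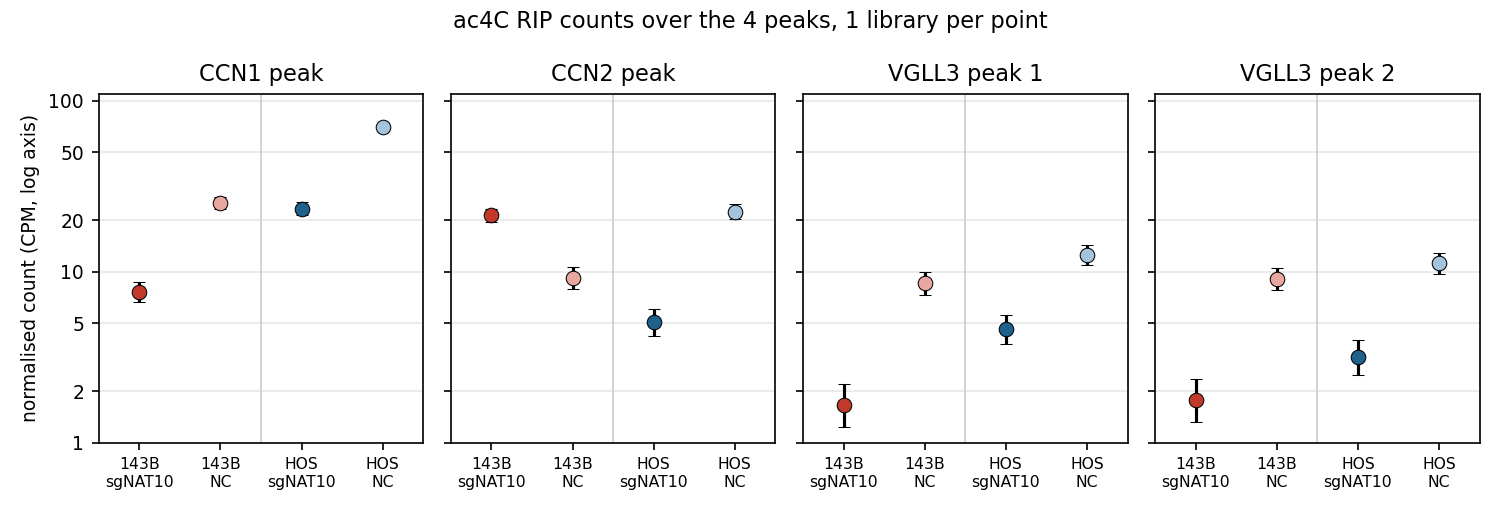
Normalised counts (CPM, log axis) of the 4 peaks in the 4 acRIP libraries, with 95% Poisson intervals for counting error. CCN1 and both VGLL3 peaks are lower in the library labelled sgNAT10 of each line, while the CCN2 peak is higher in 143B sgNAT10 (21.3 CPM) than in 143B NC (9.19 CPM) and lower in HOS sgNAT10 (5.08 CPM) than in HOS NC (22.4 CPM).

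CCN2, the ligand also known as connective tissue growth factor, went in opposite directions in the lines. Its peak held 599 counts in 143B sgNAT10 and 183 in 143B NC, 21.3 CPM (19.6 to 23.1) and 9.19 CPM (7.91 to 10.6). In HOS it held 117 counts in sgNAT10 and 405 in NC, 5.08 CPM (4.20 to 6.09) and 22.4 CPM (20.3 to 24.7). The 143B library labelled sgNAT10 therefore reached about the level of HOS NC under this scaling, with overlapping intervals, and HOS sgNAT10 was the lowest. The log2 shift was 1.21 (0.97 to 1.46) in 143B, or 2.31-fold higher in sgNAT10, and -2.13 (-2.45 to -1.84) in HOS, or 4.39-fold lower. The shifts of the lines differed by 3.34, a difference that was not tested, because each line and genotype has 1 library.

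VGLL3, the TEAD cofactor, was lower in the library labelled sgNAT10 of both lines at each of its 2 peaks. Peak 1 held 47 counts in 143B sgNAT10 against 171 in 143B NC, and 106 in HOS sgNAT10 against 228 in HOS NC. Peak 2 held 50 counts in 143B sgNAT10 against 181 in 143B NC, and 73 in HOS sgNAT10 against 203 in HOS NC. With TMM factors, the 143B library labelled sgNAT10 was the lowest at both peaks and HOS NC the highest. At peak 2, however, the intervals of HOS NC (9.75 to 12.9 CPM) and 143B NC (7.82 to 10.5 CPM) overlapped. The shift in 143B was -2.33 at peak 1 (-2.86 to -1.89) and -2.33 at peak 2 (-2.84 to -1.89), and in HOS it was -1.45 (-1.80 to -1.12) and -1.81 (-2.23 to -1.43). Summed over both peaks, VGLL3 reached 3.45 CPM in 143B sgNAT10 against 17.7 CPM in 143B NC, 5.07-fold lower, and 7.77 CPM in HOS sgNAT10 against 23.9 CPM in HOS NC, 3.06-fold lower.

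Set against all peaks, 3 of the 4 member peaks were lower by at least 2-fold in both lines, as were 1.57% of the 24467 peaks tested. With library totals alone 1 of the 4 was (VGLL3 peak 2, -1.98 in 143B and -1.23 in HOS), as were 0.257% of peaks, and CCN1 (-0.99) and VGLL3 peak 1 (-0.86) missed 2-fold in HOS. The CCN2 peak was higher by at least 2-fold in 143B and lower by at least 2-fold in HOS, as were 1.73% of peaks, but its shift in 143B was 0.96, under 2-fold, with TMM factors from all peaks, an alternative chosen after seeing the data. Because the members were chosen on this contrast, nothing is read from these counts. Line by line, 20.1% of peaks were at least 2-fold higher and 21.4% at least 2-fold lower in 143B sgNAT10. In HOS sgNAT10 the shares were 24.4% and 8.74%. The edgeR quasi-likelihood test across both lines, with cell line as a block, called 0% of peaks at an adjusted p of 0.05 (0 of 24467, with 945 at an unadjusted p under 0.05). By DESeq2 the count was also 0 (500 unadjusted), and by limma-trend 0 (1090 unadjusted).

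The control libraries of the 2 lines already differed at these genes. CCN1 was 2.78-fold higher in HOS NC than in 143B NC, a log2 difference, 143B minus HOS, of -1.48 (-1.63 to -1.33). CCN2 differed by -1.28 (-1.55 to -1.03), or 2.43-fold, and the sum of VGLL3 by -0.43 (-0.64 to -0.23), or 1.35-fold. CCN1 and CCN2 were thus lower in 143B NC, also with library totals alone (-1.03 and -0.84), while the difference of VGLL3 became 0.01 with library totals alone. Per kilobase of peak, the levels in HOS NC were 426 CPM for CCN1, 139 CPM for CCN2 and 38.6 and 49.5 CPM for the VGLL3 peaks, and in 143B NC they were 153, 57.1, 26.3 and 40.1 CPM. The order of the genes was the same in both control lines and in HOS sgNAT10 (142, 31.5, 14.1 and 14.0 CPM), except that the VGLL3 peaks changed places there with overlapping intervals. In 143B sgNAT10 CCN2 stood first, at 132 CPM per kilobase against 46.1 for CCN1 and 5.11 and 7.84 for the VGLL3 peaks.

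Ratios of raw counts within a library do not depend on how libraries are scaled, and they separated CCN2 from the other members. The CCN1 and CCN2 peaks are of nearly equal width, 165 and 161 bp. The CCN2 peak had 2.80 times the counts of the CCN1 peak in 143B sgNAT10 (2.39 to 3.29) and 0.365 times in 143B NC (0.306 to 0.433), a 7.68-fold difference. In HOS the ratio was 0.217 in sgNAT10 (0.176 to 0.265) and 0.319 in NC (0.285 to 0.357), so CCN2 was also lower relative to CCN1 there. VGLL3 over CCN1 was 0.453 in 143B sgNAT10 (0.353 to 0.579) and 0.701 in 143B NC (0.610 to 0.805), and 0.331 in HOS sgNAT10 (0.278 to 0.393) and 0.340 in HOS NC (0.304 to 0.379). VGLL3 and CCN1 thus shifted by nearly the same amount in HOS, while VGLL3 was lower relative to CCN1 in 143B sgNAT10. The 2 peaks of VGLL3, which are 21793 bp apart, kept a ratio of 0.940 in 143B sgNAT10 (0.618 to 1.43) and 0.945 in 143B NC (0.762 to 1.17), and of 1.45 in HOS sgNAT10 (1.07 to 1.98) and 1.12 in HOS NC (0.926 to 1.36). Within each line these intervals overlap.

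**Figure D2:**
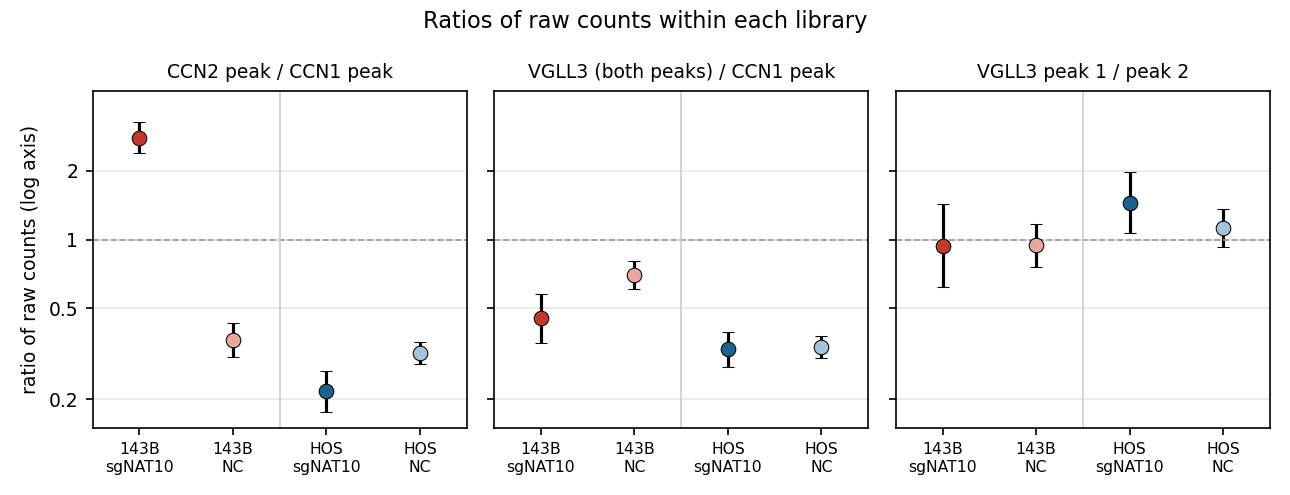
Ratios of raw counts within each acRIP library (log axis), with 95% exact binomial intervals for counting error and a dashed line at a ratio of 1. The ratio of CCN2 to CCN1 is above 1 in 143B sgNAT10 (2.80) and between 0.217 and 0.365 in the other libraries, while the ratio of the VGLL3 peaks has overlapping intervals within each line.

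The place of a peak along its gene moved with its shift across all genes, and the members lay at different places. With the strand taken from the RefSeq promoter table, 5155 peaks in protein-coding genes, each averaging at least 50 counts, could be oriented. The 883 within 500 bp of the 3′ end had a median log2 shift of 0.81 in 143B, with 85.7% higher in sgNAT10, and of -0.69 in HOS, with 14.9% higher. The 191 within 500 bp of the start had medians of -1.23 and -0.33, and the 4073 farther from both ends had -0.91 and -0.04. In 143B the median thus differed in sign between the 3′ end and the start under every scaling. In HOS it did not, except with library totals alone, where the medians were -0.10 at the 3′ end, 0.26 at the start and 0.54 farther from both.

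The CCN2 peak is of the first kind, and its signs in the lines were those of the medians at the 3′ end. In 143B, 78.1% of the peaks near a 3′ end had a lower shift than CCN2, whose shift lay above their upper quartile of 1.15, and in HOS 1.02% did. The VGLL3 peaks are of the last kind, and 10.9% and 11.0% of such peaks had a lower shift in 143B and 5.84% and 1.94% in HOS. CCN1 has no strand in that table, and its peak is more than 500 bp from either end. Relative to peaks farther from both ends, 24.8% were lower than CCN1 in 143B and 4.0% in HOS. On either strand, however, the CCN1 peak would lie 1000 to 2000 bp from the 3′ end. The 255 peaks at that distance had medians of -0.20 in 143B (quartiles -1.27 and 0.83) and -0.55 in HOS (-1.04 and 0.10). The CCN1 shifts of -1.72 and -1.58 lay below both lower quartiles. The part of peak position in the difference between CCN2 and the other members was not tested.

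**Figure D3:**
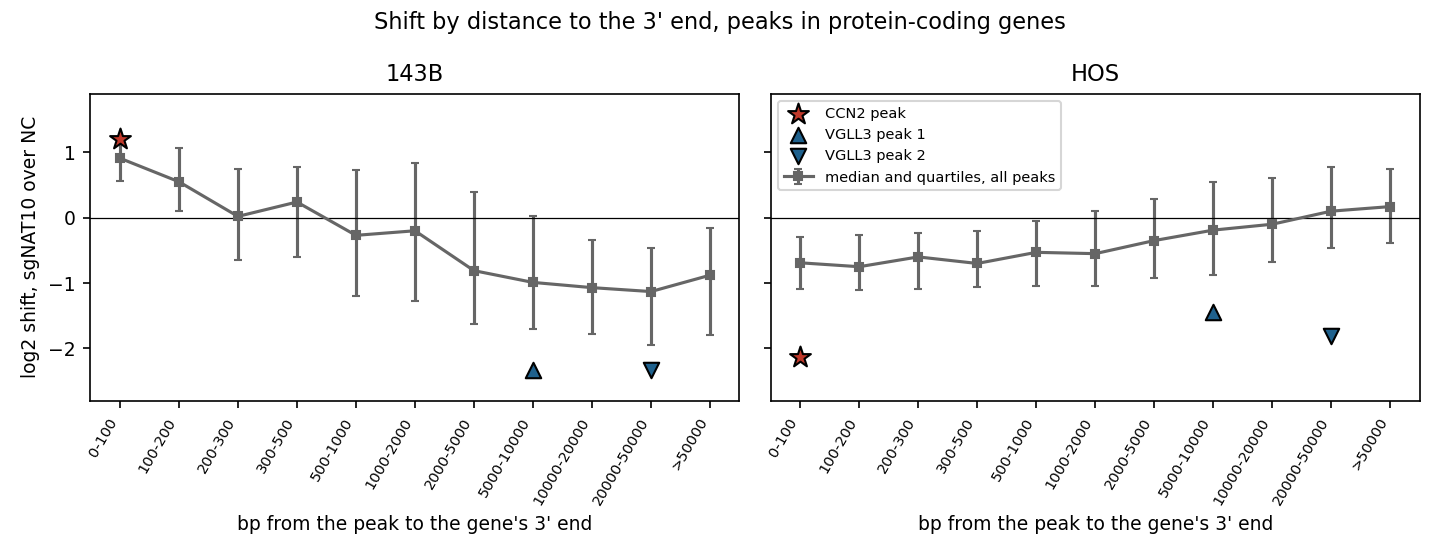
Log2 shift, sgNAT10 over NC, of peaks in protein-coding genes against their distance in bp to the 3′ end of the gene, as median and quartiles of each distance bin, with the CCN2 and VGLL3 peaks placed in their bins. In 143B the median is 0.91 in the bin nearest the 3′ end, which holds CCN2 (1.21), and -1.13 at 20000 to 50000 bp. In HOS the medians of the bins up to 500 bp lie between -0.75 and -0.60, and CCN2 lies at -2.13.

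The other genes of the pathway were taken from 7 lists of 73 genes in all, of which 43 had a peak that could be tested. In HOS 15 of the 43 (34.9%) were at least 2-fold lower in sgNAT10 and 1 (2.33%) was at least 2-fold higher, against 12.7% lower and 16.8% higher among all 8062 gene sums. The median shift in HOS was -0.62 for the 43 genes and 0.04 for all genes. In 143B 9 of the 43 (20.9%) were at least 2-fold higher and 8 (18.6%) at least 2-fold lower, near the 20.4% and 17.6% of all genes, with medians of -0.29 (0.06 with library totals alone) and 0.17. Among gene sums averaging at least 50 counts, 11 of 30 list genes (36.7%) were lower and 1 (3.33%) higher in HOS, against 15.1% and 12.2% of all such genes. In 143B 7 of the 30 (23.3%) were lower and 4 (13.3%) higher, against 22.6% and 16.3%. Scaled to library totals alone, the HOS counts were 5 lower and 4 higher of 43, or 11.6% and 9.30%, against 3.39% and 33.7% of all genes. In 143B, the 21 peaks of these genes that lay 500 bp or less from a gene end had a median of 1.06, and the 76 others one of -0.61. In HOS the medians were -0.73 and -0.61.

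**Figure D4:**
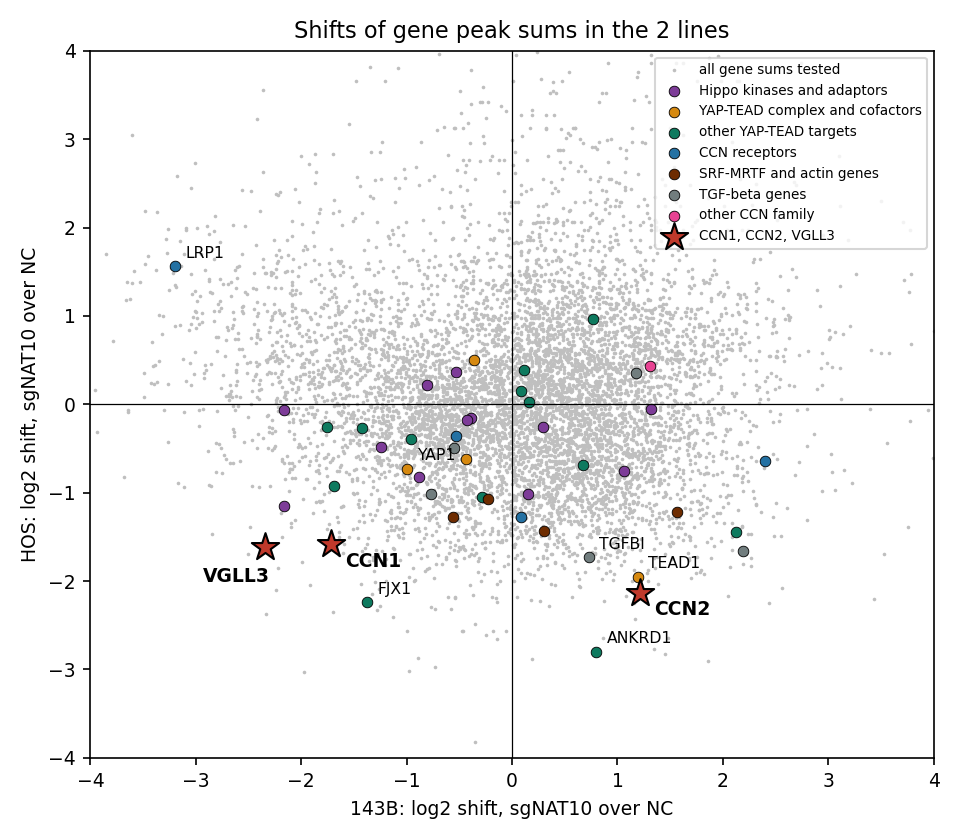
Log2 shift, sgNAT10 over NC, of gene peak sums in 143B (horizontal axis) and HOS (vertical axis), with all gene sums tested in grey, the pathway lists in colour and CCN1, CCN2 and VGLL3 as stars. VGLL3 and CCN1 lie in the lower left quadrant and CCN2 in the lower right, near TEAD1, and 76 gene sums lie outside the axes.

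Among the YAP-TEAD complex and its cofactors, 4 of 9 genes had a peak, and YAP1 and TEAD1 differed in direction in 143B. YAP1, the coactivator, had a single peak 287 bp from the start of the gene and 122316 bp from its 3′ end. YAP1 had 295 counts in 143B sgNAT10 against 418 in 143B NC, and 552 in HOS sgNAT10 against 720 in HOS NC. Its shifts were -1.0 (-1.22 to -0.78) and -0.73 (-0.90 to -0.57), lower in both lines. TEAD1, a DNA-binding partner of YAP, had 169 counts in 143B sgNAT10 against 52 in 143B NC, and 55 in HOS sgNAT10 against 169 in HOS NC. Its shifts of 1.19 (0.75 to 1.68) and -1.95 (-2.44 to -1.52) had the signs of CCN2. Of its 3 peaks, those 95426 and 107422 bp from the nearest gene end had 0.99 and 0.91 in 143B and -2.54 and -1.97 in HOS, and the one 81 bp from an end had 1.74 and -0.42. The coactivator gene WWTR1, which encodes TAZ, had -0.36 and 0.50, and TEAD3 had -0.44 and -0.62. No peak was assigned to TEAD2, TEAD4, VGLL1, VGLL2 or VGLL4.

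Of the 18 other YAP-TEAD target genes, 13 had a peak. In 143B 1 was at least 2-fold higher and 4 lower, with a median of 0.08. In HOS none was higher and 4 were lower, with a median of -0.39. Beside these stand 20.4% higher and 17.6% lower of all gene sums in 143B, and 16.8% and 12.7% in HOS. CRIM1, a membrane regulator of growth factors, had 1960 counts in 143B sgNAT10 against 3713 in 143B NC (-1.42), and 4100 in HOS sgNAT10 against 3871 in HOS NC (-0.27). The most counted of its 5 peaks had 3173 counts in HOS sgNAT10 against 1900 in HOS NC (0.39). The other CRIM1 peaks had -1.33, -1.58, -1.06 and -1.47 in HOS. In 143B its peaks ranged from -1.6 to -0.93. The receptor kinase AXL had shifts of -0.96 in 143B and -0.39 in HOS, MYOF of membrane repair -0.29 and -1.05, and ASAP1, a regulator of small GTPases, -1.69 and -0.92. The MYOF sum joined a peak 41 bp from the 3′ end, at 1.10 in 143B, and peaks farther from it, at -1.05 to -0.44. In HOS the MYOF peaks ranged from -1.44 to -0.66. With library totals alone, the sums of AXL and CRIM1 in HOS and of MYOF in 143B turned positive (0.19, 0.32 and 0.06). ANKRD1, a muscle ankyrin repeat gene and strong YAP target named here after its values were seen, had 338 counts in 143B sgNAT10 against 137 in 143B NC (0.80), and 40 in HOS sgNAT10 against 223 in HOS NC (-2.8). FJX1 was the target lower by at least 2-fold in both lines (-1.38 and -2.24), and AMOTL2, an angiomotin, was higher in 143B and lower in HOS (2.12 and -1.44). FOXF2 had -1.76 (-2.09 to -1.46) in 143B and -0.26 in HOS, the latter 0.32 with library totals alone.

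Of the 15 Hippo kinases and adaptors upstream of YAP, 12 had a peak. In 143B 2 were at least 2-fold higher and 3 lower (median -0.48), and in HOS none was higher and 2 were lower (median -0.22). Of all gene sums, 20.4% were higher and 17.6% lower in 143B, and 16.8% higher and 12.7% lower in HOS. The 2 higher in 143B were MOB1A (1.32, interval 0.67 to 2.09) and AMOTL1 (1.06, 0.37 to 1.85), at -0.05 and -0.75 in HOS. Each has a single peak, 101 and 139 bp from the 3′ end. LATS1, a kinase that phosphorylates YAP, had 97 counts in 143B sgNAT10 against 310 in 143B NC (-2.16), and 412 in HOS sgNAT10 against 337 in HOS NC (-0.06). The kinase gene MAP4K4 had -1.24 in 143B and -0.48 in HOS, the tumour suppressor gene NF2 0.15 and -1.02, and STK3, the upstream kinase MST2, 0.29 and -0.26. The NF2 sum joined 2 peaks of opposite direction in 143B. The one 20321 bp from the 3′ end had -1.23 in 143B and -0.79 in HOS, and the one 60 bp from it had 1.08 and -1.5. The adaptor WWC1 was lower by at least 2-fold in both lines (-2.16 and -1.15) on 11 to 38 counts, but its HOS shift (-2.08 to -0.34) was -0.58 with library totals alone.

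Of the receptors and relatives of the CCN proteins, few had peaks. The remaining CCN family was represented by CCN4, at 1.31 (0.98 to 1.68) in 143B and 0.43 (-0.19 to 1.10) in HOS, and no peak was assigned to CCN3, CCN5 or CCN6. Of 8 receptors 4 had a peak. The endocytic receptor LRP1 had 11 counts in 143B sgNAT10 against 79 in 143B NC (-3.20), and 409 in HOS sgNAT10 against 108 in HOS NC (1.56). The integrin genes had 2.40 and -0.64 (ITGA6), 0.08 and -1.28 (ITGAV) and -0.53 and -0.36 (ITGB5) in 143B and HOS. The ITGAV sum joined a peak 24425 bp from the 3′ end, at -1.71 in 143B, and one 29 bp from it, at 1.92. In HOS these had -1.30 and -1.14. ITGA6 rests on a single peak 276 bp from the 3′ end. As gene sums, the receptors thus followed no common direction in 143B, and the part of peak position was not tested.

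SRF and its MRTF coactivators, which respond to actin, and TGF-beta also induce CCN genes, and lists of both were described. All 4 SRF-MRTF and actin genes with a peak were at least 2-fold lower in HOS sgNAT10, with a median of -1.25, against 12.7% of all gene sums. With library totals alone none of the 4 was (-0.85 to -0.49, median -0.69), against 3.39%. These were ACTB (cytoplasmic actin, -1.07), VCL (vinculin of focal adhesions, -1.28), TPM1 (tropomyosin, -1.43) and CALD1 (caldesmon, -1.22 on 6 and 12 counts, with an interval of -3.05 to 0.17). In 143B the same genes had -0.23, -0.56, 0.30 and 1.56. The VCL sum joined peaks at -1.84, -1.98, -1.08 and 1.12 in 143B. ACTB rests on a single peak 148 bp from a gene end, and CALD1 and TPM1 on single peaks 100 and 22 bp from the 3′ end. Of all 883 peaks averaging at least 50 counts within 500 bp of the 3′ end, 28.8% were at least 2-fold lower in HOS. The part of peak position in the shifts of these genes was not tested. Of 5 TGF-beta genes with a peak, 3 were at least 2-fold lower in HOS (median -1.02) and 2 at least 2-fold higher in 143B (median 0.73). The shares of all gene sums were 12.7% lower in HOS and 20.4% higher in 143B. TGFBI, a matrix protein induced by TGF-beta, had 895 counts in 143B sgNAT10 against 381 in 143B NC (0.73), and 412 in HOS sgNAT10 against 1073 in HOS NC (-1.73). The signal transducer SMAD3 had -0.77 and -1.02, the ligand TGFB1 -0.55 and -0.50, and the receptor gene TGFBR1 2.19 and -1.66.

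**Figure D5:**
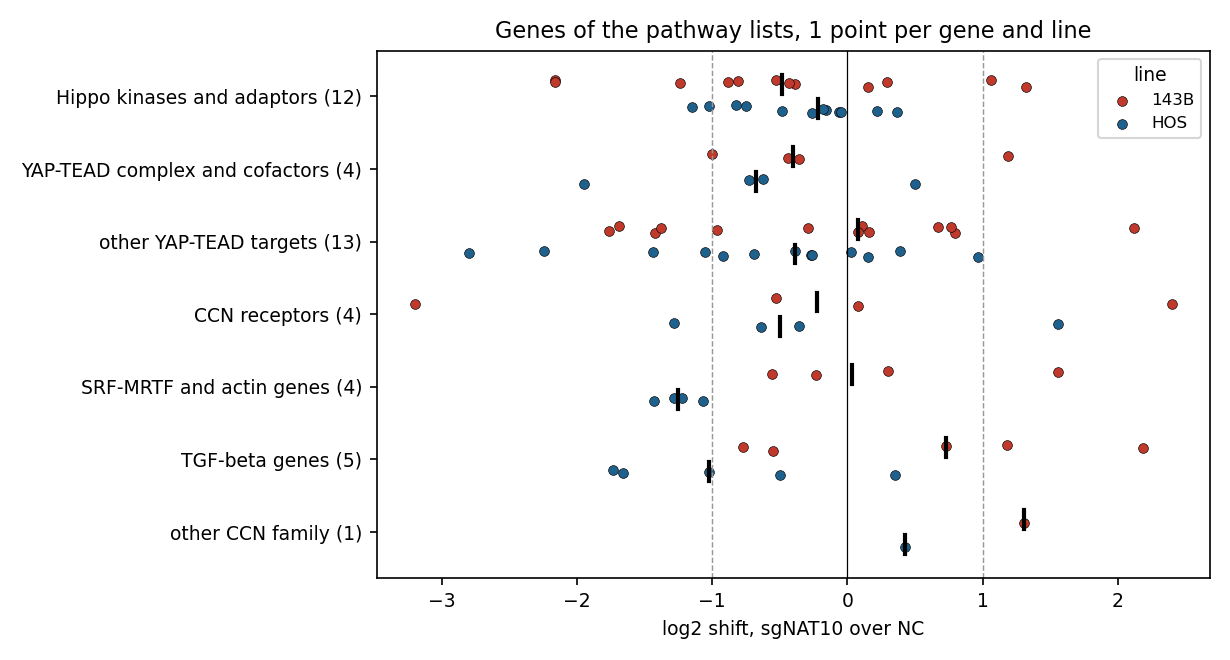
Log2 shift, sgNAT10 over NC, of each tested gene of the 7 pathway lists in 143B (red) and HOS (blue), with black bars at the median, dashed lines at 2-fold and the number of genes in brackets. The SRF-MRTF and actin genes all lie at -1.07 or below in HOS and between -0.56 and 1.56 in 143B.

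Of all 43 list genes, 2 were lower by at least 2-fold in both lines (WWC1 and FJX1), against 1.59% of gene sums. A further 4 were higher by at least 2-fold in 143B and lower by as much in HOS (TEAD1, AMOTL2, CALD1 and TGFBR1), against 2.79% of gene sums. With library totals alone FJX1 was the 1 gene lower in both lines, against 0.248% of gene sums. The 4 genes higher in 143B and lower in HOS were then TEAD1, TGFBR1, ANKRD1 (1.15 and -2.22) and TGFBI (1.08 and -1.14), against 1.15% of gene sums, while AMOTL2 (-0.88) and CALD1 (-0.68) missed 2-fold in HOS. No difference between lines was tested.

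The genes with the most similar pattern were ranked by the Euclidean distance of log2 CPM, centred over the 4 libraries, among 4752 genes averaging at least 50 counts. Closest to CCN1 were AGO1 (distance 0.133), LAMP2 (0.223), SLC25A13 (0.286), PRDX1 (0.293) and SEC61A1 (0.314). Closest to VGLL3 were HCFC1 (0.260), NR2F2 (0.295), SMG5 (0.446), UNC5D (0.491) and IRS1 (0.501). Closest to CCN2 were UNG (0.203), TMEM109 (0.219), PPA1 (0.241), CD24 (0.261) and MRM2 (0.291). VGLL3 ranked 134 from CCN1, at a distance of 0.869, and CCN2 ranked 3826, at 2.86. The distances rest on 4 libraries and are a description.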

How the data were processed

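The deposited values are counts: raw read counts over 31395 peak intervals shared by 2 tables, 1 for each line, per the file headers. The column names give line and genotype, and the assay was taken from the tables' naming as RIP counts. The submitters' processing notes name GRCh38, FastQC, STAR, SAMtools and deepTools. The peak caller, the counter, the strand setting and whether starts count from 0 or 1 are not given in the sources used here, so positions are as deposited. The 4 input libraries were not used here, and 7 blank columns were ignored.

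Peaks were assigned to genes with a RefSeq gene table (GRCh38.p14): to the protein-coding gene overlapped if exactly 1, otherwise to the single gene overlapped. This gave 19101 peaks in 9096 genes, and gene values are sums of peaks. Strand came from the RefSeq promoter table, which held 12401 of 15349 peaks in protein-coding genes. Counts were scaled with TMM factors (edgeR 4.0.16, R 4.3.3; 0.728 to 1.26) computed on the peaks kept by filterByExpr (minimum count of 10, minimum total of 15). A shift is the difference of log2 CPM with a prior count of 1, sgNAT10 minus NC, within a line. Intervals are 95% exact intervals from scipy 1.17.1. The edgeR quasi-likelihood test, with cell line as a block, left 1 residual degree of freedom. Tested on simulated data with the spread of these libraries, it missed most of the changed peaks, so its low counts of calls say little. DESeq2 1.42.0 and limma 3.58.1 were alternatives.

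The members and lists were chosen with earlier results of these data known. In the paragraphs on single lists, the genes named are the 4 with the highest mean count, those making up a count of 5 or fewer with TMM factors, and ANKRD1. 1 named gene is not reported here.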

Additional observations from a re-analysis of the deposited data

Results flagged for a closer look

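Of the 3 members and the 43 tested list genes, those below had opposite directions in the 2 lines, with the counting interval away from 0 in each, and in every case the difference between lines was not tested. The shift in 143B minus the shift in HOS was 3.34 for CCN2, 3.14 for TEAD1, 3.60 for ANKRD1, 3.57 for AMOTL2, 3.85 for TGFBR1, 2.46 for TGFBI, 1.81 for AMOTL1, 1.73 for TPM1 and 1.36 for GADD45A, all higher in 143B sgNAT10 and lower in HOS sgNAT10. LRP1 went the other way, at -4.76. The GADD45A value is a sum of 2 peaks that differed from each other. The peak 462 bp from a gene end had 0.19 in 143B and -0.84 in HOS. The peak 61 bp from an end was higher in sgNAT10 of both lines, at 2.21 and 0.44. CCN2, TGFBI and TPM1 each rest on a single peak within 38 bp of the 3′ end, and AMOTL1 on a single peak 139 bp from it. Peaks of all genes within 500 bp of the 3′ end had medians of opposite sign in the lines (0.81 in 143B and -0.69 in HOS). The part of this in the differences was not tested. The TEAD1 peaks at 95426 and 107422 bp from the nearest end and both LRP1 peaks, at 20513 and 21393 bp from the 3′ end, are not of that kind.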

How the results depend on the processing

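Relative to TMM, log2 shifts were larger by 0.35 (143B) and 0.59 (HOS) with library totals alone, and moved by -0.28 to 0.21 with the other scalings. All 62 alternative values of the member shifts kept the sign of the reported value, and 49 lay within its counting interval. The alternatives were other scalings, the rRNA block peaks left out, a prior count of 5 and the higher VGLL3 peak alone. A scaling moves every shift of a line by the same amount, at most 0.59 in size, and the smallest member shift was 1.21. These scalings could therefore not reverse a sign. VGLL3 enters the 62 values as its sum and as each peak. With library totals alone the shifts in 143B and HOS were -1.37 and -0.99 for CCN1, 1.56 and -1.55 for CCN2, and -2.00 and -1.03 for VGLL3. Without the rRNA block peaks HOS had -1.86 for CCN1 and -1.89 for VGLL3, and with RLE factors -1.74 for CCN1. With TMM factors from all peaks, an alternative chosen after seeing the data, 143B had -1.97 for CCN1 and 0.96 for CCN2. Of 43 list genes, 13 in 143B were lower and 2 in HOS higher at 1.5-fold, and with library totals alone 4 were higher and 5 lower in HOS. List medians changed sign with library totals alone for Hippo genes in HOS (0.36), other targets in HOS (0.19) and CCN receptors in 143B (0.12) and HOS (0.08), and with RLE factors for other targets (-0.01) and SRF-MRTF and actin genes (-0.05) in 143B. The test across lines called 1 peak without a filter on low counts and 6 among peaks averaging at least 100 counts. Without the cell line block it called 0 (499 at an unadjusted p under 0.05), and on gene sums 0 (306). The block pairs the libraries by cell line; no paired analysis by replicate number was possible because the labels give none, and leaving out a line leaves the shifts within the other line, given above, with no test. VGLL3 peaks with 47 to 228 counts have the widest intervals of the members.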
